A study of Mus musculus with 6 samples.

Results

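The genes described here are those of glycolysis and glucose use: glucose transporters, the enzymes that turn glucose into pyruvate and lactate, the enzymes that decide whether pyruvate enters the mitochondrion, and the enzymes of glycogen. They were taken from a list of 38 gene symbols by the symbol that the array's platform annotation gives each probe set. Of the 38 members, 34 had a probe set of their own among the 18182 genes tested, and for each the brightest probe set, averaged over the 6 arrays, was used. Gpi1, Pfkfb1 and Eno1 were not analysed here, and Gapdh was found on 3 probe sets that list other genes as well, so it is given apart. A probe set ending in _s_at or _x_at, which can match several transcripts, represented 3 members (Slc2a3, Aldoa and Tpi1).

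RNA came from limb cells of mouse embryos that carry the transgene Tg:Pax7-nGFP, a nuclear green fluorescent protein under the control of Pax7, the transcription factor of muscle stem and progenitor cells. The mice were of mixed C57BL/6:DBA2 background. Limbs were dissociated with trypsin, GFP-positive cells were sorted, and arrays were made for 3 biological replicates (A, B and C) of the embryonic age E12.5 and for 3 of E17.5. Both ages carry the same transgene, and the labels name no gate beyond GFP and do not say how many embryos stand behind an array. Pax7 itself was at 11.46 ± 0.28 at E12.5 and 12.37 ± 0.15 at E17.5 (SD, n = 3). Levels are log2 signals that the authors computed with GCRMA. Means stand with their SD over 3 arrays. A difference is the E17.5 mean less the E12.5 mean, in log2 units, so that a difference of 1 is a 2-fold change. The test was limma's, fitted across all genes. A gene is said to have risen or fallen where its Benjamini-Hochberg adjusted p was under 0.05. Of the 7 measured muscle progenitor genes, 3 rose, 1 fell and 3 were not called. Itga7 rose from 2.22 ± 0.08 to 9.06 ± 0.19, Myog by 1.86 and Pax7 by 0.91. Pax3 fell by 2.56 (adjusted p = 0.0142, and up to 0.0527 without 1 array). Myf5, Myod1 and Met differed by 0.90, 0.15 and -0.53. Whether the sorted cells were in the same state at both ages was not tested.

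Array medians lay between 3.38 and 3.47, and 42.8% of genes had a mean under 4, the range in which GCRMA values hold little specific signal. Replicates A and B of E17.5 resembled each other more than any other arrays of one age. Across brighter genes (mean 6 or more) their difference had an SD of 0.152, and that of the remaining same-age pairs was 0.412 to 0.551. They may not be independent samples, so calls of the genes named below that were lost when A and B were averaged and counted as 1 sample are given with them. Of the marker lists of other cells, the 11 measured red cell genes had a summed signal, with the logarithm undone, of 8427 to 31510 at E12.5 and 100.6 to 128.6 at E17.5. The embryonic globin gene Hbb-y, the brightest of them at E12.5, was at 14.08 ± 0.96 and 3.67 ± 0.69, and 6 of the 11 had a mean under 4. The 10 connective tissue genes summed to between 8077 and 23310 at E12.5 and between 25070 and 33840 at E17.5, but did not share a direction. Of them 4 rose and 3 fell (3 and 1 with A and B averaged), against 8.21% and 8.73% of all genes. Dpt rose from 2.10 ± 0.44 to 11.14 ± 0.09, while Pdgfra fell from 10.01 ± 1.30 to 6.33 ± 1.44. The 9 cartilage genes summed to between 3726 and 6930 at E12.5 and between 368 and 1324 at E17.5. The 8 nerve and Schwann cell genes summed to between 5131 and 7913 and between 847.9 and 1088. Of these 8, 7 were at a mean under 4 and the receptor gene Erbb3 was at 12.68 ± 0.33 and 9.87 ± 0.20. The 10 endothelial genes summed to between 234.4 and 483.3 at E12.5 and between 1342 and 1543 at E17.5 (6 at a mean under 4, and the receptor gene Tek at 5.29 ± 0.55 and 10.18 ± 0.13), the 10 macrophage genes to between 285.4 and 634.2 and between 259.3 and 318.5 (5 under 4), and the 7 epidermal genes to between 409.2 and 786.2 and between 274.4 and 302.1. Of the defining markers, the endothelial gene Pecam1 and the leukocyte gene Ptprc were under 3 on every array, while others were not at background. The endothelial gene Egfl7 was at 7.10 ± 0.35 and 7.43 ± 0.25, and Kdr and Esam reached 6.04 and 6.39 on E12.5 replicate B. Of the macrophage genes, Cd68 rose from 3.69 ± 0.71 to 6.68 ± 0.18, Laptm5 fell from 8.31 ± 0.65 to 6.54 ± 0.42 (adjusted p = 0.0216, and 0.0504 with A and B averaged), and Csf1r reached 6.42 on E12.5 replicate B. The part of these cells in the differences below was not tested, and in a sorted bulk sample fewer cells of a type and less RNA per cell cannot be told apart.

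Glucose enters a cell through facilitative transporters of the Slc2a family and is trapped by hexokinase as glucose 6-phosphate. Phosphofructokinase commits it to glycolysis, which ends in pyruvate, and pyruvate is either reduced to lactate by lactate dehydrogenase or oxidised in the mitochondrion after passing the pyruvate dehydrogenase complex. Mature skeletal muscle uses its own forms of several of these proteins, among them the insulin-responsive transporter GLUT4 (Slc2a4), the mutase Pgam2, the enolase Eno3 and the glycogen phosphorylase Pygm, while proliferating progenitors are known for the general forms.

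Most members showed no called difference between the ages. The falls of Hk2, Pgam2, Ldhb, Pdk3 and Pygb and the rise of Pygm, each at least 2-fold, kept their calls in each of the 18 other fits that gave a value for them. All but Ldhb have 1 probe set, so the fits with another probe set choice could not change their differences. Of the 34 measured members, 11 fell, 1 rose and 22 were not called. Over all 18182 genes, 8.73% fell and 8.21% rose (16.9% in either direction), so that 32.4% of the members stood against 8.73% of all genes among the falls. By at least 2-fold 10 members fell and 1 rose, against 5.08% and 5.68% of all genes. The median difference of the members was -0.33, against 0.00 over all genes. Among brighter members (mean 6 or more) it was -0.42, and 9 of 24 of them (37.5%) fell, against 13.2% of all genes that bright. All 3 arrays of E17.5 lay below all 3 of E12.5 in 14 members and above them in 6, where this held for 17.2% and 14.2% of all genes. With E17.5 replicates A and B averaged, 9 members fell and 1 rose, and the calls of Pfkfb3 and Pfkfb4 were lost.

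**Figure D1:**
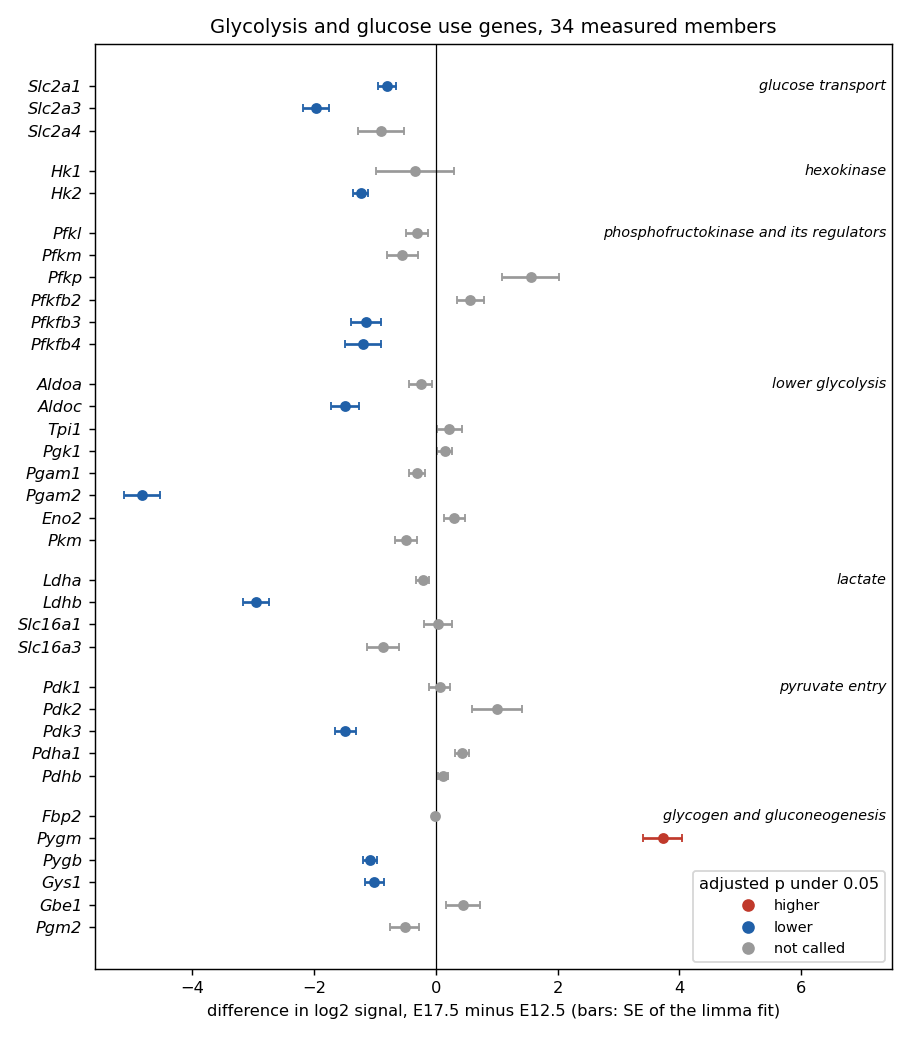
Difference in log2 signal (E17.5 minus E12.5, with the SE of the limma fit) for the 34 measured members, ordered by their role. The 11 members that fell are blue, the 1 that rose is red and the 22 that were not called are grey, with Pgam2 at -4.83 and Pygm at 3.72 as the ends of the range.

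The 3 members that moved furthest were Pgam2, Pygm and Ldhb, and their promoter windows are shown here with that of Hk2, another fallen member, and that of Ldha, the uncalled counterpart of Ldhb. They were chosen after their values were seen. Each window runs from 250 bases before to 50 bases after a RefSeq transcription start on assembly GRCm38.p6 and is written 5′ to 3′ on the strand of the gene. Capitals mark ACGTG read on either strand (printed as ACGTG or CACGT), the core that hypoxia-inducible factors recognise, and CAGCTG, an E-box of the kind that myogenic factors can bind. The palindrome CACGTG, which Myc and clock factors can bind, holds ACGTG on both strands. The window of Pgam2 is chr11:5803747-5804046 (minus strand), that of Pygm chr19:6384158-6384457 (plus), that of Ldhb chr6:142507908-142508207 (minus), the first of 2 windows of Ldha chr7:46845554-46845853 (plus) and that of Hk2 chr6:82774405-82774704 (minus).
Pgam2: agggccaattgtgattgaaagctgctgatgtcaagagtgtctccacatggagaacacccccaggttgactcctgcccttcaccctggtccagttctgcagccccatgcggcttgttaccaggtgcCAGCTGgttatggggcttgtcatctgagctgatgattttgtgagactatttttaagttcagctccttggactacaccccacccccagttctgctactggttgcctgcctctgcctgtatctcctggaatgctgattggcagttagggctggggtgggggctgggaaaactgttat
Pygm: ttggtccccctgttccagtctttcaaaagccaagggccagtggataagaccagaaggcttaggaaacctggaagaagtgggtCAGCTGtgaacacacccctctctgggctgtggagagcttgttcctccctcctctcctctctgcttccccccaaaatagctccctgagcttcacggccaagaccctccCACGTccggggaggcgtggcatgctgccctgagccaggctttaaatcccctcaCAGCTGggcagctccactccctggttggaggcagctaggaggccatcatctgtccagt
Ldhb: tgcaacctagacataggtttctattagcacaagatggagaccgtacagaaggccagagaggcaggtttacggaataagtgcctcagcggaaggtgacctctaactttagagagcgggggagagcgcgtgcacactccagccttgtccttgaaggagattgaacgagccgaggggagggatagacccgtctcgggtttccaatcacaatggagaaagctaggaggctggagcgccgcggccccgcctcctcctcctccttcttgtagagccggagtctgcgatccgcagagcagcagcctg
Ldha: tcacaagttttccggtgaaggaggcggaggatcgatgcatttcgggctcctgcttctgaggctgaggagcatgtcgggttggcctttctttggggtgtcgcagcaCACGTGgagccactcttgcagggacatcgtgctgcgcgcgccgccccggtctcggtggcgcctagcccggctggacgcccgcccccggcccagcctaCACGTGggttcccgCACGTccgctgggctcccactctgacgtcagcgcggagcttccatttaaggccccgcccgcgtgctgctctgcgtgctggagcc
Hk2: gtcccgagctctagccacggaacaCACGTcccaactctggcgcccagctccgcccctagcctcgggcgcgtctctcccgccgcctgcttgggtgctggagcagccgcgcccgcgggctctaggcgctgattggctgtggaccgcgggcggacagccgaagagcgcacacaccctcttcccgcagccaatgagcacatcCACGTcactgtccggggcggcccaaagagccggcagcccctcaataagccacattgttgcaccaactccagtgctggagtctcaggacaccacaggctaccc

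The Pgam2 window held 1 CAGCTG and no ACGTG, and the Pygm window held 2 CAGCTG and 1 ACGTG. Neither motif was in the Ldhb window, whereas the first Ldha window held 2 CACGTG and 1 further ACGTG, and the second had neither. Hk2 had ACGTG at 2 places. Of the members, 36 were in the promoter table (not Slc2a3 and Slc2a4), with 55 windows, and 26 of these windows (47.3%) held ACGTG on either strand. The share was 19.6% over all 32851 windows of the table and 22.9% over the windows of genes tested on these arrays. CACGTG was in 7 of the members' 55 windows (12.7%), against 7.15% of all windows and 8.73% of those of tested genes. CAGCTG was in 10 of them (18.2%), against 16.3% of all windows and 16.3% of those of tested genes. The motif CAGCTG was added after the values were seen. ACGTG was in a window of 7 of the 11 called members in the table and of 22 of all 36, so called and uncalled members alike hold it. These matches describe the sequence only.

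Both general glucose transporters fell. Slc2a3, which encodes the high-affinity transporter GLUT3, stood at 9.58, 10.35 and 9.77 in E12.5 replicates A, B and C and at 7.92, 8.06 and 7.83 in E17.5 replicates A, B and C. The ages did not overlap, and the difference was -1.96 (SE 0.21, adjusted p = 0.00145), a 3.90-fold lower signal at E17.5. That value came from an _s_at probe set. The _x_at set of the gene differed by -1.95, and its 2 other probe sets lay near 2 at both ages. Slc2a1, which encodes the basal transporter GLUT1, was at 10.49, 10.85 and 10.83 at E12.5 and 9.92, 10.07 and 9.77 at E17.5, and fell by 0.80 (SE 0.14, adjusted p = 0.0101). Its 2 other probe sets differed by -0.78 and -0.41 and were not called over all probe sets (adjusted p = 0.108 and 0.742). Slc2a4, the GLUT4 gene of muscle and fat, was dim at 5.59 ± 0.44 and 4.69 ± 0.57, its ages overlapped, and it was not called (difference -0.90, SE 0.38, adjusted p = 0.175).

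Hexokinase 2, the form of muscle and of many growing cells, was lower at E17.5. Hk2 stood at 10.99, 11.37 and 11.31 at E12.5 and at 10.03, 10.03 and 9.90 at E17.5, a fall of 1.24 (SE 0.13, adjusted p = 0.00116). The 2 ages lay well apart and the arrays of each age were close together. Hk1, the general form, had no such order. It was at 9.54, 8.59 and 8.20 at E12.5 and at 8.01, 7.48 and 9.82 at E17.5, with the highest value of all in E17.5 replicate C (difference -0.34, SE 0.64, 95% interval -1.86 to 1.18, adjusted p = 0.862). Its arrays spread more within an age than between the ages, and the sign of the difference turned without E17.5 replicate B (0.14) or E12.5 replicate A (0.04).

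At the phosphofructokinase step the enzyme genes were not called and 2 of 3 measured genes of its regulators fell. Pfkfb3 and Pfkfb4 encode bifunctional enzymes that make or remove fructose 2,6-bisphosphate, the activator of phosphofructokinase. Pfkfb3 was at 6.84, 7.26 and 7.30 at E12.5 and 6.19, 6.05 and 5.70 at E17.5 (difference -1.15, SE 0.24, adjusted p = 0.0209). Pfkfb4 was at 6.31, 6.44 and 6.80 at E12.5 and 5.78, 5.07 and 5.11 at E17.5 (-1.20, SE 0.29, adjusted p = 0.0346). In both genes the ages did not overlap, but the calls rested on few arrays. With E17.5 A and B averaged the adjusted p was 0.0643 for Pfkfb3 and 0.0675 for Pfkfb4, and without 1 array it ran from 0.0186 to 0.0793 and from 0.0406 to 0.142. Pfkfb3 lost the call without E12.5 replicate B or C or E17.5 replicate A or B, and Pfkfb4 without E12.5 replicate B or C or E17.5 replicate B or C. Pfkfb2, the third of them, was at 4.87 ± 0.09 and 5.43 ± 0.18 and not called (0.57, SE 0.22, adjusted p = 0.138).

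Of the subunit genes of the enzyme itself, Pfkm, the muscle form, was at 9.47 ± 0.50 and 8.91 ± 0.18 and Pfkl, the liver form, at 11.55 ± 0.18 and 11.24 ± 0.32. Neither was called (differences -0.55 and -0.31, adjusted p = 0.225 and 0.354), and their ages overlapped. Pfkm passed the test without E12.5 replicate A (-0.83, adjusted p = 0.0194). Pfkp, the platelet form, went the other way, at 3.76, 5.11 and 3.26 at E12.5 and 5.53, 5.56 and 5.71 at E17.5. All E17.5 arrays were above all E12.5 arrays, but the scatter at E12.5 was wide and the gene was not called (1.56, SE 0.47, adjusted p = 0.0688). Without E12.5 replicate B, the highest of its age, the difference was 2.09 (adjusted p = 0.00435).

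The steps from aldolase to pyruvate kinase were led by bright genes that were not called. Aldoa, the aldolase of muscle and most other tissues, was at 13.00 ± 0.32 and 12.76 ± 0.22 (difference -0.25, 95% interval -0.70 to 0.21). The triose phosphate isomerase gene Tpi1 was at 13.17 ± 0.14 and 13.39 ± 0.41 (0.22, -0.27 to 0.71), and the phosphoglycerate kinase gene Pgk1 at 13.57 ± 0.14 and 13.72 ± 0.19 (0.14, -0.16 to 0.45). These intervals leave out a 2-fold change in either direction for each of the 3 genes. Pgam1, the general phosphoglycerate mutase, was at 12.73 ± 0.24 and 12.42 ± 0.06 (-0.31, SE 0.13, adjusted p = 0.176), and its ages did not overlap. Pkm, the pyruvate kinase gene of muscle and of proliferating cells, which encodes both forms by splicing, was at 12.61 ± 0.17 and 12.12 ± 0.32 (-0.49, SE 0.18, adjusted p = 0.123). Without E12.5 replicate A Pgam1 was called (-0.44, adjusted p = 0.0313), and without E17.5 replicate C so was Pkm (-0.67, adjusted p = 0.0224). The brightest probe set that lists Gapdh together with other genes was at 13.41, 13.44 and 13.64 at E12.5 and 13.39, 13.49 and 13.63 at E17.5 (0.01, SE 0.10). What share of that signal is Gapdh cannot be read from it.

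Pgam2, the muscle form of phosphoglycerate mutase, had the largest difference of all members. It stood at 9.15, 8.56 and 9.45 at E12.5 and at 4.10, 4.56 and 4.02 at E17.5, close to the range of little specific signal. Every E12.5 array was at least 4 log2 units above every E17.5 array, and the difference was -4.83 (SE 0.30, adjusted p = 0.000189), a 28.4-fold lower signal. Eno3, the muscle enolase, which is outside the list, moved the same way, from 10.37 ± 0.38 to 8.84 ± 0.32 (-1.53, SE 0.24, adjusted p = 0.00645). Both genes are known from differentiated muscle, so 18 other genes of differentiated muscle were read beside them. Of these, 4 rose, 3 fell and 11 were not called, against 8.21% and 8.73% of all genes, with a median difference of 0.53. With A and B averaged 4 rose and 1 fell, and without 1 array 4 to 6 rose and 1 to 3 fell. The creatine kinase gene Ckm rose from 2.47 on every E12.5 array to 5.27 ± 0.31 and the fast troponin gene Tnni2 from 5.49 ± 0.25 to 8.61 ± 0.25, as did Myh8 (2.55) and the dim Tnnt3 (1.93). The slow myosin gene Myh7 fell by 2.33 (1.13 under a floor at 4). The falls of Actn3 (1.34) and Casq1 (1.03, and 0.18 under the floor) were lost with A and B averaged (adjusted p = 0.0748 and 0.0632).

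The remaining glycolytic forms were dim. Aldoc, the brain-type aldolase, was at 3.57, 4.36 and 3.47 at E12.5 and at 2.26, 2.22 and 2.45 at E17.5. It was called (difference -1.49, SE 0.23, adjusted p = 0.00611), but both means were under 4 and a floor at 4 (all lower values set to 4) left a difference of -0.12 (adjusted p = 0.71). The other probe set of the gene differed by 0.26. Eno2, the neuronal enolase, stayed under 4 on every array (2.89 ± 0.36 and 3.19 ± 0.08), and was called without E12.5 replicate B (0.51, adjusted p = 0.00614).

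**Figure D2:**
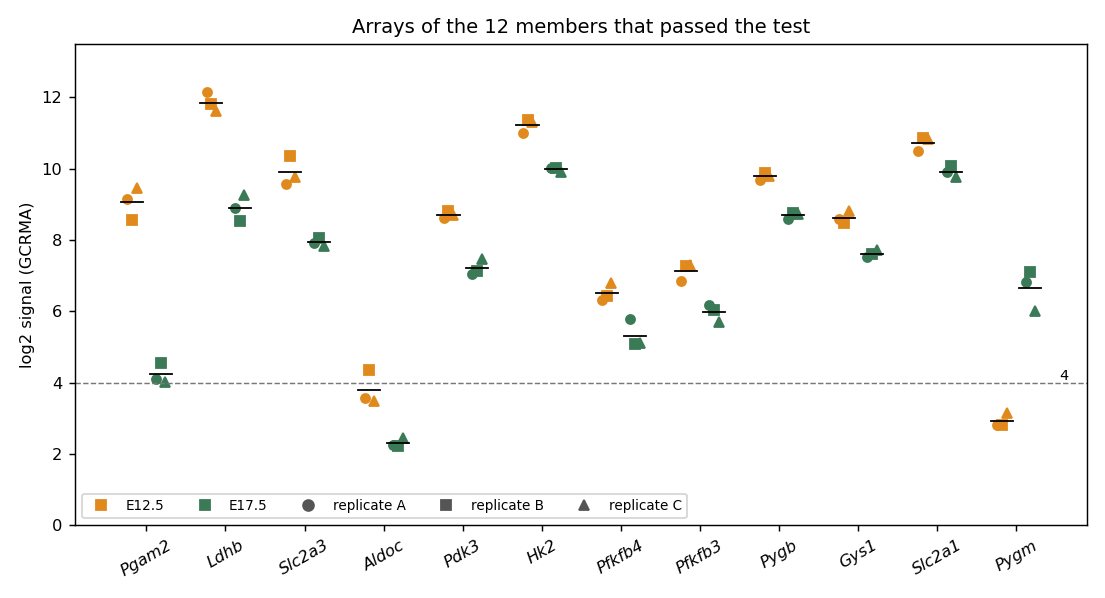
Log2 signal on each of the 6 arrays for the 12 members that passed the test, with a black line at the mean of each age and a dashed line at 4. The 12 were picked by the test on these same arrays, which favours ages that do not overlap, and in none of them do the ages overlap. Pgam2 at E17.5, Pygm at E12.5 and Aldoc at both ages lie near or below the line.

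Of the lactate dehydrogenase genes, Ldhb fell and Ldha was not called. Ldhb encodes the heart-type subunit, known from oxidative tissues, and Ldha the muscle-type subunit. Ldhb was at 12.14, 11.81 and 11.61 at E12.5 and at 8.89, 8.54 and 9.25 at E17.5. The difference was -2.96 (SE 0.22, adjusted p = 0.000313), a 7.78-fold lower signal with the ages more than 2 log2 units apart. All 4 probe sets of the gene gave nearly the same value, from -2.86 to -2.96. Ldha was at 13.53, 13.46 and 13.42 at E12.5 and at 13.11, 13.23 and 13.41 at E17.5 (-0.22, SE 0.10, adjusted p = 0.227). Its ages were next to each other without overlap, and the 95% interval of the difference, -0.47 to 0.03, reached neither a 2-fold fall nor a 2-fold rise.

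Lactate leaves or enters a cell through monocarboxylate transporters. Slc16a1, which encodes the general transporter MCT1, was bright at both ages, at 11.52 ± 0.31 and 11.55 ± 0.38 (difference 0.03, SE 0.23, 95% interval -0.52 to 0.58). Slc16a3, which encodes MCT4, the exporter of glycolytic muscle fibres, was dim at 3.60 ± 0.47 and 2.72 ± 0.34 and was not called (-0.87, SE 0.27, adjusted p = 0.072).

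Pyruvate dehydrogenase kinases switch the pyruvate dehydrogenase complex off. Pdk3 was at 8.61, 8.81 and 8.70 at E12.5 and at 7.05, 7.13 and 7.48 at E17.5 and fell by 1.49 (SE 0.17, adjusted p = 0.00186). Its E17.5 arrays all lay over 1 log2 unit below the E12.5 arrays. Pdk1 was bright at both ages, at 11.28 ± 0.25 and 11.34 ± 0.23 (0.06, SE 0.17, adjusted p = 0.919). Pdk2 was under 4 on all arrays except E17.5 replicate C, which stood at 4.96. Without that array the difference was 0.49 (adjusted p = 0.013), and with it 1.0 (SE 0.41, adjusted p = 0.165). Of the complex itself, Pdha1, the E1 alpha subunit gene, was at 11.09 ± 0.13 and 11.53 ± 0.15 and lay just outside the threshold (0.43, SE 0.12, adjusted p = 0.0501), and it passed without E17.5 replicate C (adjusted p = 0.0317). Pdhb, the E1 beta subunit gene, was at 11.51 ± 0.08 and 11.62 ± 0.05 and was not called (0.11, SE 0.09, adjusted p = 0.517), though the ages of both genes did not overlap.

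The glycogen phosphorylases, which release glucose units from glycogen, moved in opposite directions. Pygm, the muscle form, whose loss causes McArdle disease, stood at 2.80, 2.81 and 3.15 at E12.5, in the range of little specific signal, and at 6.82, 7.09 and 6.02 at E17.5. Its difference was 3.72 (SE 0.32, adjusted p = 0.000573), and under a floor at 4 it was 2.64 (adjusted p = 0.00718). Pygb, the brain form, which is also found in fetal tissues, was at 9.69, 9.88 and 9.81 at E12.5 and at 8.60, 8.77 and 8.74 at E17.5, and fell by 1.09 (SE 0.11, adjusted p = 0.00127). No array of one age reached the range of the other in either gene. Gys1, the glycogen synthase of muscle and most other tissues, was at 8.60, 8.47 and 8.82 at E12.5 and at 7.52, 7.60 and 7.73 at E17.5, a fall of 1.01 (SE 0.16, adjusted p = 0.00591). Averaging its 2 probe sets, of which the second is dim, gave a difference of -0.76 (adjusted p = 0.0681).

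The other members of this branch were not called. Gbe1, the glycogen branching enzyme gene, was at 6.01 ± 0.31 and 6.46 ± 0.34 (0.45, SE 0.28, adjusted p = 0.405). Pgm2 was at 7.72 ± 0.32 and 7.21 ± 0.26 (-0.51, SE 0.24, adjusted p = 0.222). The gene now called Pgm1, which links glycogen to glucose 6-phosphate and of which Pgm2 is an older name, is outside the list and rose from 7.89 ± 0.32 to 8.98 ± 0.26 (1.09, SE 0.22, adjusted p = 0.017; 0.0602 without E17.5 replicate B). Fbp2, the muscle fructose bisphosphatase of the reverse pathway, was at 2.32 ± 0.01 and 2.30 ± 0.02, in the range of little specific signal at both ages.

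Muscle forms were then set against general or other forms of the same protein within each array, in 9 pairs. The pair of Eno3 and Eno1 could not be formed. Levels of 2 probe sets cannot be compared on an array, so what was compared is how the log2 ratio of a pair changed between the ages. With 3 arrays per age the smallest p of the two-sided exact permutation test is 0.1, or 0.18 after adjustment over the 9 pairs, so no pair could pass 0.05. The ratio was higher at E17.5 in 3 pairs and lower in 6. In 5 pairs the ages did not overlap, 3 of them with a higher and 2 with a lower ratio at E17.5. Among single genes the ages did not overlap in 14.2% (higher at E17.5) and 17.2% (lower) of all genes. No such share was computed for pairs of other genes.

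The ratio of Pygm to Pygb was higher at E17.5 by 4.81, from -6.87 ± 0.21 to -2.06 ± 0.57 (n = 3 each, exact permutation p = 0.1), with 3.72 from Pygm and -1.09 from Pygb. Since Pygm was under 4 on every E12.5 array, that size is not exact, and under a floor at 4 it was 3.73. The ratio of Ldha to Ldhb was higher by 2.74 (1.62 ± 0.21 to 4.36 ± 0.29, n = 3, exact permutation p = 0.1), with differences of -2.96 for Ldhb and -0.22 for Ldha. Both were lower, so the ratio changed by less than Ldhb did. In the opposite direction, the ratio of Pgam2 to Pgam1 differed by -4.51 (-3.68 ± 0.62 to -8.19 ± 0.30, n = 3, exact permutation p = 0.1), with differences of -4.83 for Pgam2 and -0.31 for Pgam1. Here too both were lower, so the ratio changed by less than Pgam2 did. The ratio of Pfkm to Pfkp differed by -2.11 (exact permutation p = 0.1), with -0.55 from Pfkm and 1.56 from the dim Pfkp, and by -1.78 under a floor at 4. That of Aldoa to Aldoc was higher by 1.24 (exact permutation p = 0.1) through the dim Aldoc, and under a floor at 4 it was -0.13. The ages overlapped for Slc2a4 against Slc2a1 (-0.10, exact permutation p = 1), Hk2 against Hk1 (-0.90, exact permutation p = 0.5), Pfkm against Pfkl (-0.25, exact permutation p = 0.5) and Slc16a3 against Slc16a1 (-0.91, exact permutation p = 0.2, and -0.08 under the floor). Adjusted over the 9 pairs, these exact permutation p-values of 0.1, 0.2, 0.5 and 1 became 0.18, 0.3, 0.562 and 1. The ratios of these pairs did not share one direction, and of the muscle forms themselves Pygm alone had a higher mean at E17.5.

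**Figure D3:**
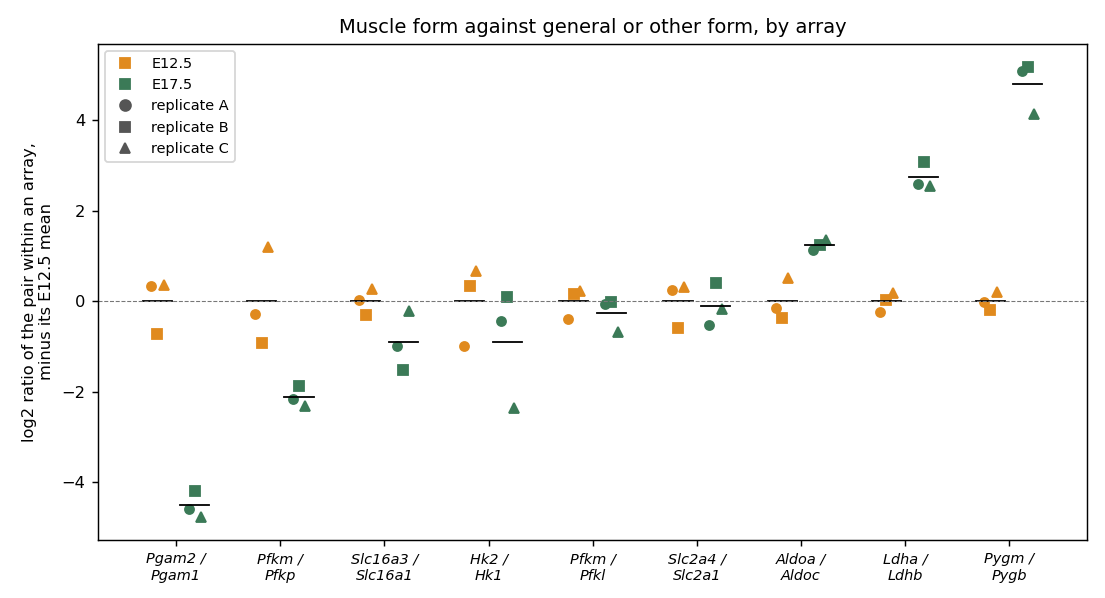
Log2 ratio of 2 forms of the same protein within each array, less the mean of that ratio at E12.5, with a black line at the mean of each age. The pairs run from Pgam2 against Pgam1, lower by 4.51 at E17.5, to Pygm against Pygb, higher by 4.81.

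The neighbouring pathways were read from lists of genes outside the 38, and their counts stand beside 8.21% of all genes that rose and 8.73% that fell. Among 16 other measured genes of glycolysis and gluconeogenesis 2 fell, Eno3 and the bisphosphoglycerate mutase gene Bpgm (-0.86), and 1 rose, the dim hexokinase-like gene Hkdc1 (1.30, or 0.39 under a floor at 4, adjusted p = 0.0403). The call of Hkdc1 was lost with A and B averaged (adjusted p = 0.0805) and, of the fits without 1 array, it held without E12.5 replicate B alone. The median of that list was 0.00. In the list of 15 other glucose and lactate transport genes 4 rose and 1 fell (2 to 5 and 1 without 1 array, 2 and 1 with E17.5 A and B averaged). Emb, embigin, a partner protein that carries monocarboxylate transporters to the membrane, fell from 8.49 ± 0.44 to 4.64 ± 0.15 (-3.85, SE 0.28, adjusted p = 0.000301). The rises were those of the transporter gene Slc2a12 (2.11, from an _s_at probe set, and 0.96 with adjusted p = 0.115 from another), the fructose transporter gene Slc2a5 (3.41, and 1.67 with the floor at 4), the glucose 6-phosphate transporter gene Slc37a4 (1.01) and Txnip, an inhibitor of glucose uptake (0.99, adjusted p = 0.0447, and 0.14 as adjusted p with A and B averaged). For Slc37a4 the adjusted p with A and B averaged was 0.0706, and its call was lost without E17.5 replicate A or B (0.0686 and 0.0763). That of Txnip was lost without E12.5 replicate B or C or E17.5 replicate A or B (0.13 to 0.146). Slc2a5 and Hkdc1 were named after their values were seen.

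Of 22 glycogen genes outside the list of members, 4 rose and 18 were not called, beside 8.21% of all genes that rose, and the median was 0.02 (1 to 3 rises without 1 array, 2 with A and B averaged). Stbd1, a starch-binding protein of glycogen membranes, was at 9.19, 8.97 and 9.15 at E12.5 and at 11.24, 11.42 and 11.85 at E17.5 (2.40, SE 0.17, adjusted p = 0.000293). The liver phosphorylase gene Pygl rose by 1.10 (adjusted p = 0.043, and 0.121 averaged; of the single arrays left out, the call held for E12.5 replicate B alone), beside Pgm1 and Ppp1r3d, a phosphatase targeting subunit gene (0.86, 0.47 with the floor, adjusted p = 0.0363 and 0.0618 averaged, named after its values were seen). The call of Ppp1r3d held without E17.5 replicate A or C and was lost without each of the other 4 arrays (adjusted p up to 0.0991). In the list of 10 other genes of pyruvate entry 3 rose, beside the same 8.21% of all genes, and 7 were not called. Each fit without 1 array also gave 3 rises. Pdk4, the kinase gene of fasting and of fat use, was at 4.66, 3.95 and 5.60 at E12.5 and at 9.28, 9.46 and 7.85 at E17.5 (4.13, SE 0.57, adjusted p = 0.00391), opposite to Pdk3. Pdp1, the phosphatase gene that switches the complex on again, rose by 1.30 and the mitochondrial pyruvate carrier gene Mpc1 by 1.06.

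Of 11 measured pentose phosphate genes 3 fell and 1 rose (2 to 5 and 1 to 2 without 1 array), beside 8.73% and 8.21% of all genes. Tkt, transketolase, fell by 2.31 (13.85 ± 0.30 to 11.54 ± 0.62, adjusted p = 0.00384) and Pgd by 0.72, while H6pd, the form of the endoplasmic reticulum, rose by 1.84. The fall of Rpe (0.66, adjusted p = 0.0152) was lost with A and B averaged (adjusted p = 0.067) and without E12.5 replicate C or E17.5 replicate A or B (0.0667 to 0.0695). Of 19 citric acid cycle genes 1 fell and 3 rose, beside the same shares of all genes. The fall was that of Idh1, which encodes the cytosolic isocitrate dehydrogenase (-0.97). The rises of Sdhd, Idh3b and Idh3a were small (0.49, 0.43 and 0.35). None of these 3 rises held with A and B averaged (adjusted p = 0.16, 0.127 and 0.139) or without any single array other than E17.5 replicate C, and the list's median was 0.12.

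Known targets of hypoxia-inducible factors are among the fallen members (such as Slc2a1, Hk2 and Pfkfb3) and among the uncalled ones. Of the latter, Pgk1, Ldha and Pdk1 differed by 0.14, -0.22 and 0.06. Genes of that response outside the list of members were read for comparison. Of 26 measured 6 rose, 1 fell and 19 were not called, with a median of -0.01 (2 to 5 rises and 1 to 2 falls without 1 array, 3 and 1 averaged). Hif1a itself was at 11.91 ± 0.05 and 12.01 ± 0.06 (adjusted p = 0.593) and Vegfa at 8.22 ± 0.13 and 8.18 ± 0.35 (adjusted p = 0.949). Ndrg1 rose by 5.35 (SE 0.13, adjusted p = 2.32e-05), Rora by 3.4 and Ak4 by 0.96 (adjusted p = 0.017; 0.0632 averaged, 0.0699 and 0.0627 without E17.5 replicate A or B). The other rises, named after their values were seen, were those of Egln3 (0.68), Egln1 (0.41) and the dim Adm (1.06, and 0.20 under a floor at 4). Their adjusted p was 0.0372, 0.0499 and 0.0318, and 0.13, 0.13 and 0.0372 averaged. Without 1 array it reached 0.142, 0.165 and 0.0933. Angptl4 fell by 2.33 on an _s_at probe set, and its other probe set differed by 0.40. Over all genes 8.21% rose and 8.73% fell, and the list was not tested against the members.

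**Figure D4:**
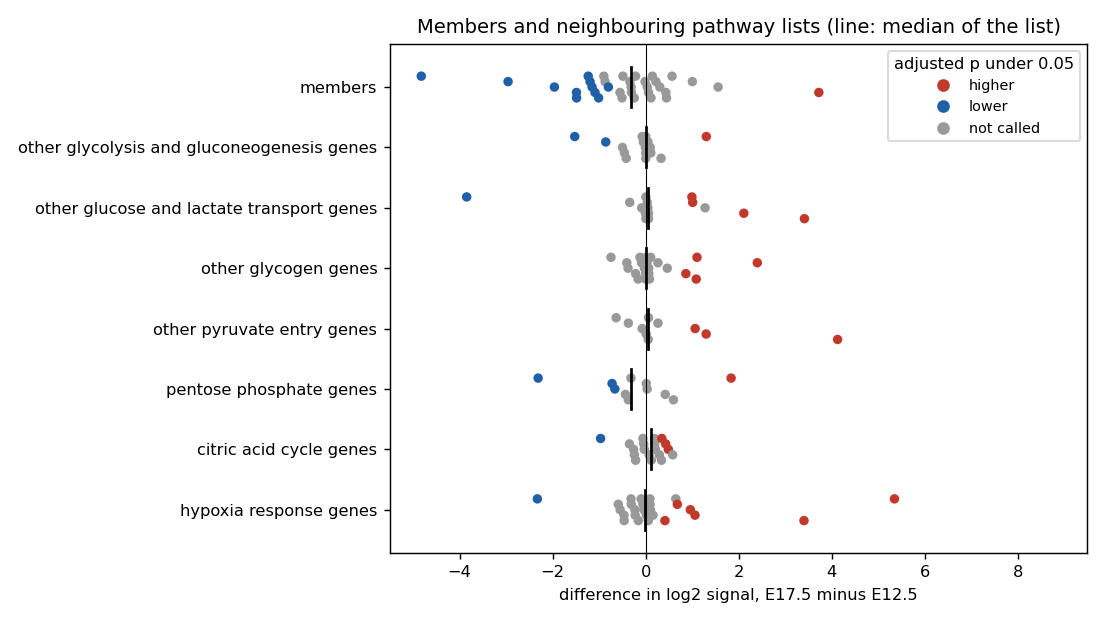
Difference in log2 signal (E17.5 minus E12.5) for each measured gene of the members and of 7 neighbouring lists, coloured by call, with a black line at each list's median. The members' median is -0.33 and that of the pentose phosphate genes -0.32, while the other 6 lists have medians from -0.01 to 0.12.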

How the data were processed

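Each deposited value is the log2 signal of a probe set, for which the submitters' processing notes name GCRMA (its version is not given here), deposited by the authors and measured on 100 ng of RNA amplified from the 3' end, per the labels' protocols. GCRMA corrects background by probe sequence and normalizes between arrays. Gene symbols came from the platform annotation (34909 of 44994 with 1 symbol, 931 with several, 9154 not named here), with symbols updated by entrez ID to RefSeq GRCm38.p6. A gene is its brightest probe set over all 6 arrays. The test of a difference was that of limma 3.58.1 under R 4.3.3 (eBayes with intensity trend, no filter, Benjamini-Hochberg over 18182 genes, tested on simulated data). The simulated arrays were independent, so the simulation does not cover the likeness of E17.5 A and B. Figures used matplotlib 3.10.9. Limma's p-values set the difference between the ages against the spread of arrays within an age, and treat the arrays as independent. The number of arrays limits their precision. Pairs of forms were compared with exact permutation tests. Alternatives changed the variance prior, array weights, probe set choice, filter, floor, scaling, threshold, replicate block and arrays used. Every member was described, with up to 3 risen and 3 fallen genes per neighbouring list (ages not overlapping, higher mean at least 6). Promoters are RefSeq's. The members and lists were chosen with earlier results of these data known.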

Additional observations from a re-analysis of the deposited data

How the results depend on the processing

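The 18 other fits used other variance priors, array weights, probe set choices, filters at means of 4 and 6, a floor at 4, other scalings, a block, averaged E17.5 A and B, or left out 1 array. Hk2, Pgam2, Ldhb, Pdk3, Pygm and Pygb kept their calls in every one that gave a value, and 7 of 22 uncalled members were called in none. Of those that kept their calls, all but Ldhb have 1 probe set, so another probe set choice could not change their differences. Ldhb has only _a_at and _x_at sets, which were kept where a gene had no other, so leaving out such sets did not test it. Slc2a1, Slc2a3 and Aldoc lost theirs without _s_at, _x_at and _a_at probe sets (adjusted p = 0.645, 1 and 0.422), where the difference of Aldoc was 0.26. The mean of probe sets lost Slc2a1 (0.127) and Gys1 (0.0681), the floor Aldoc (0.71) and Pfkfb4 (0.0531), quantile normalization Pfkfb4 (0.0539), and the replicate block Pfkfb3 (0.0847) and Pfkfb4 (0.105).

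Array weights gave 8424 called genes (3204 higher, 5220 lower) and 27 members (6 and 21), but they lean on E17.5 A and B and E12.5 C (weights 4.98, 3.24 and 4.81, against 0.140 for E17.5 C). With A and B averaged 1846 genes were called (825 lower), and at an adjusted p under 0.01 there were 1542 (841 higher, 701 lower). Same-lettered arrays did not deviate together (correlations -0.38, 0.25 and -0.07), and with the replicate block 1014 genes were lower and the members counted 1 higher and 10 lower. Members counted as higher were 2 without the intensity trend, with probe sets of several genes and with the floor, and 3 among means of at least 4. Without 1 array the genes called ran from 1741 to 3329 (970 to 1553 higher, 771 to 1776 lower), and the members from 10 to 14 (1 to 3 higher, 9 to 13 lower). The pairs with a higher ratio numbered 2 to 4.

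Uncalled differences that turned sign were those of Hk1 (0.0058 averaged, and -1.03 to 0.14 without 1 array), Tpi1 (-0.013 to 0.36 without 1 array), Gbe1 (-0.0085 with array weights), Pdk1 (-0.052 with the mean of probe sets, and -0.085 to 0.15 without 1 array) and Slc16a1 (-0.042 with the mean of probe sets, -0.075 averaged, and -0.13 to 0.25 without 1 array). Angptl4 was at 0.40 and the ratio of Aldoa to Aldoc at -0.51 without _s_at, _x_at and _a_at sets, and that ratio at -0.13 with the floor. The cause was not tested.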
